A study of Mus musculus with 10 samples.

Results

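The genes described here are 10 genes of the osteoclast, the cell that resorbs bone: Nfatc1, Dcstamp, Ocstamp, Atp6v0d2, Oscar, Calcr, Itgb3, Acp5, Ctsk and Mmp9. They were taken by symbol, as genes of known role in this cell, with earlier results of these data known, and are 10 of the 35705 genes of the summed table. In the order of the cell's work they comprise 1 transcription factor (Nfatc1), 3 genes of cell fusion (Dcstamp, Ocstamp, Atp6v0d2), 2 receptors (Oscar, Calcr), 1 adhesion integrin (Itgb3) and 3 resorption enzymes (Acp5, Ctsk, Mmp9). RNA was sequenced from the cartilage caps of the medial knee of 10 untreated mice, 1 library from each: 5 were labelled wild-type controls and 5 Mir324-null. By that label the latter have no working gene for the microRNA miR-324; how the allele was made, the strain, and the age, sex and litter of the mice were not given in the sources used here. The study is about miR-324 in bone-forming and bone-resorbing cells, and the comparison asked which transcripts differ in the tissue of mice without it.

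Osteoclasts arise when precursors of the monocyte lineage receive CSF1 and RANK ligand (RANKL). RANK signalling, with co-stimulation by receptors such as OSCAR, induces the transcription factor NFATc1, which switches on the genes for fusion, attachment and resorption. The fused cell seals onto bone with the integrin αvβ3, acidifies the space beneath it with a proton pump, and releases cathepsin K and other enzymes that digest the matrix. Articular cartilage itself holds no osteoclasts; they sit on the bone and calcified cartilage beneath it.

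The tissue label was checked against marker genes. Of 10 chondrocyte markers, Col2a1 was at a mean of 91.4 ± 31.9 TPM in the 5 wild-type libraries and of 59.0 ± 24.1 TPM in the 5 null ones, Acan at 146 ± 83.4 and 72.0 ± 8.82, and Matn1, Matn3 and Col9a1 averaged below 1 TPM (mean ± SD, n = 5 each). The most abundant marker of this list, Chad, averaged 761 ± 304 and 578 ± 54.4 TPM. Comp averaged 235 ± 144 and 249 ± 89.0 TPM, so its null mean was the higher. The 10 chondrocyte markers summed to 857 to 2257 TPM in wild-type libraries and to 815 to 1220 TPM in the null ones. TPM is the abundance of a transcript per length, out of a fixed library total. Marrow and bone markers were far more abundant: 10 neutrophil genes summed to between 58404 and 118310 TPM, 8 erythroid genes to between 112712 and 263791 TPM, and 11 osteoblast and osteocyte genes to between 3649 and 15029 TPM. Between 13386 and 14299 genes per library reached 1 TPM, and the read depth is unknown. In bulk samples such as these, fewer osteoclasts and less RNA per osteoclast cannot be told apart. No value for Mir324 itself was analysed here, so the genotype labels were not checked on the targeted gene.

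The microRNA that the null mice lack is cut into 2 mature strands. Their sequences are shown because a microRNA recognises its targets chiefly through the seed, bases 2 to 8, printed in capitals (RefSeq, GRCm38.p6). The hairpin lies on chromosome 11, with the 5p strand at chr11:70012060-70012082 and the 3p strand at chr11:70012095-70012114, both on the plus strand.
mmu-miR-324-5p: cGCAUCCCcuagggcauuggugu
mmu-miR-324-3p: cCACUGCCccaggugcugcu

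Sites complementary to these seeds are GGGATGC for the 5p strand and GGCAGTG for the 3p strand, searched on the sense strand of the longest 3′ UTR of each gene. Neither was found in the longest 3′ UTR of any of the 10 osteoclast genes. For Nfatc1 this was the 3′ UTR of Nfatc1-201. Another 4 coding transcripts of Nfatc1 end elsewhere, and their 3′ UTRs were not searched, so sites there remain unknown. The wild-type mean of these 4 together was 14.2 TPM. It was also 14.2 TPM for Nfatc1-201 and Nfatc1-206 together, which end at the same base. Among the 12596 tested genes with an annotated 3′ UTR, 8.50% held the first and 15.4% the second. Of 36 further genes of the osteoclast pathway and its signals with an annotated 3′ UTR, 5 held a 5p site and 5 a 3p site, which is 13.9% for each strand. The site of Tnfrsf11a, the gene of the RANKL receptor, is shown (bases 405 to 411 of its 3′ UTR). That of the sugar phosphate transporter gene Slc37a2 is also shown (bases 1989 to 1995). Of the 36, these are the genes with both a site and an unadjusted p under 0.05 for the genotype difference. Siglec15, described below, was not among the 36 searched, so whether it holds a site is unknown. Clcn7, described below, holds 2 sites of the 3p strand, at bases 91 to 97 and 1136 to 1142, which are not shown. The sites are printed 5′ to 3′ on the sense strand with the match in capitals. Tnfrsf11a is on chromosome 1 and Slc37a2 on chromosome 9 (GRCm38).
Tnfrsf11a: aaagagtgaaaGGGATGCacggccactac
Slc37a2: caatatgaaaaGGCAGTGagaagcagaag

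Tnfrsf11a and Slc37a2 were both lower on average in null mice and are described with the pathway below. A sequence match is a description of letters and does not show that a site is used.

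Acp5, Ctsk and Oscar varied together across libraries, and the RefSeq table (GRCm38.p6) held promoters for these and for Calcr. Those of the first 3 are shown from 250 bases before to 50 bases after the start, on the gene's own strand. The Acp5 window lies at chr9:22131816-22132115 (minus strand), Ctsk at chr3:95498960-95499259 (plus strand) and Oscar at chr7:3616108-3616407 (minus strand). Capitals mark matches on either strand to the core of NFAT sites (GGAAA), of PU.1 sites (GAGGAA), of AP-1 sites (TGANTCA), or to the E-boxes CATGTG and CACGTG of the MITF family. GGAAA and GAGGAA overlap where the letters GAGGAAA occur.
Acp5: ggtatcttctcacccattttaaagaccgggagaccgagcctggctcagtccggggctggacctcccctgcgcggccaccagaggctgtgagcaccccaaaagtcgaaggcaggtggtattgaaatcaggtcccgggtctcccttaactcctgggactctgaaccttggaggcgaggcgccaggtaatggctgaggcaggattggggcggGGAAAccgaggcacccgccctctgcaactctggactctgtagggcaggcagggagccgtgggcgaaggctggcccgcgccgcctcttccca
Ctsk: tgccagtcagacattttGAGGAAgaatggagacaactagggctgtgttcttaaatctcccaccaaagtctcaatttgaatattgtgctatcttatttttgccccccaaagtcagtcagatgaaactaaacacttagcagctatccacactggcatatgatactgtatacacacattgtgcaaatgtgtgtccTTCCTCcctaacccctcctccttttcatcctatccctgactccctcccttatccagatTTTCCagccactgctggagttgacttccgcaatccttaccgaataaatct
Oscar: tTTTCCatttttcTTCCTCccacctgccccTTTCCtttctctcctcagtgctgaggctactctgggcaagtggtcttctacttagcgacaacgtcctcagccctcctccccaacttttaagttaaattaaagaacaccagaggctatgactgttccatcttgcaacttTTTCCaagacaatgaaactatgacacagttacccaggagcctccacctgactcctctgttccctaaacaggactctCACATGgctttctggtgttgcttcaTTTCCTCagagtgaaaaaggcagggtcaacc

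The Acp5 window held 1 NFAT match, the Ctsk window 1 NFAT and 2 PU.1 matches, and the Oscar window 4 NFAT matches, 2 PU.1 matches and 1 CATGTG. Such matches are common: of 32851 promoters of the same length, 61.3% held GGAAA, 28.3% GAGGAA, 14.2% CATGTG, 7.81% TGANTCA and 7.15% CACGTG. The Acp5 window is that of the start most used in these libraries. Transcripts that begin within 60 bases of it carried between 204 and 1275 TPM, against 0.688 to 4.58 TPM at an upstream start. Acp5-204, which begins further downstream, carried 11.9 to 55.7 TPM, or 3.20% to 13.3% of the gene.

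The fusion, co-stimulation and resorption genes were lower on average in the null mice, and the adhesion gene Itgb3 was higher. Dcstamp, Ocstamp, Oscar, Acp5 and Ctsk had wild-type means between 2.11 and 3.07 times the null means, Atp6v0d2 1.78 times, and Nfatc1 and Mmp9 1.28 and 1.31 times. No difference passed the threshold on the adjusted p. The comparison used limma (two-sided) on log2(TPM + 1), and p-values were adjusted by Benjamini-Hochberg over the 13841 genes that averaged 1 TPM or more. At an adjusted p under 0.05, 0% of those genes were called, in either direction. At an unadjusted p under 0.05, 7.3% of all genes were lower in null mice (1011 genes) and 4.28% higher (592 genes), and of the 9 osteoclast genes tested 7 were lower and 1 higher. The lower count was 4 of 9 without wild-type replicate 1, without wild-type replicate 2, without null replicate 4 or without null replicate 5. Over all genes the split moved with the scaling, to 860 lower and 914 higher under median ratio scaling, 929 and 884 under quantile normalization, and 577 and 1216 when TPM was rescaled without haemoglobin genes. The 9 osteoclast genes tested kept their direction under all 3; Calcr was recomputed under median ratio scaling only and kept its direction there. The median log2 difference was -0.79 over the 9 osteoclast genes and -0.05 over all genes.

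The genotypes overlapped for every one of the 10 genes. Over all genes tested, 1.06% had all null libraries below all wild-type ones and 0.881% had them all above. For the 3 fusion genes, Oscar, Acp5 and Ctsk, wild-type replicate 5 was the lowest wild-type library and null replicate 3 the highest null one. The plot of the osteoclast genes by library shows this overlap.

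**Figure D1:**
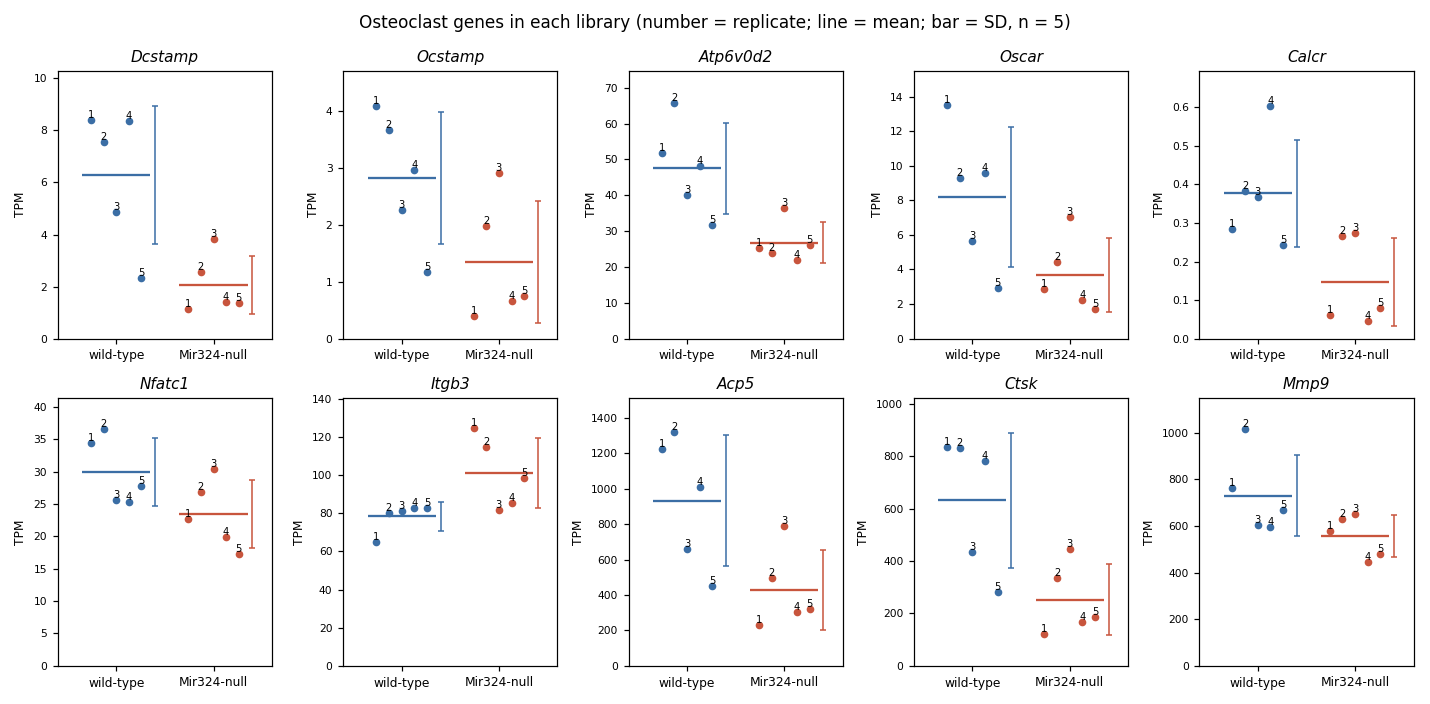
Level of each osteoclast gene in TPM (vertical axes, from 0) in 5 wild-type and 5 Mir324-null libraries, 1 numbered point per mouse, with the group mean as a line and the SD as a bar. For the fusion genes, Oscar, Acp5 and Ctsk, wild-type replicate 5 is the lowest wild-type point and null replicate 3 the highest null point, while Itgb3 is the gene with the higher null mean.

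Nfatc1 encodes the transcription factor that drives osteoclast formation (ENSMUSG00000033016, chr18:80606205-80713071, minus strand, GRCm38). It stood at 34.5, 36.7, 25.6, 25.3 and 27.8 TPM in wild-type replicates 1 to 5 and at 22.8, 26.8, 30.4, 19.9 and 17.3 TPM in null replicates 1 to 5. Wild-type replicates 1 and 2 were above all others, and the remaining wild-type libraries lay within the null range. The means were 30.0 ± 5.26 and 23.4 ± 5.25 TPM. The log2 difference of -0.35 ± 0.162 (SE) had an unadjusted p of 0.0508 and an adjusted p of 0.435, with an exact permutation p of 0.0873 (two-sided). The exact test enumerates 252 splits of the mice and was computed for each gene singly, unadjusted. The unadjusted limma p of Nfatc1 was between 0.0156 and 0.0433 under 8 of 19 alternatives, among them leaving out wild-type replicate 3 or 4 or null replicate 2 or 3.

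The coding transcripts of Nfatc1 begin at either of 2 starts and stop at a short or a long 3′ end. Short and long refer to how far along the chromosome the last base lies, not to the length of the 3′ UTR. The longest 3′ UTR, of 2338 bases, is that of Nfatc1-201, which has the short 3′ end. Those from the downstream start summed to 18.5 ± 3.66 TPM in wild-type mice and to 16.6 ± 4.62 TPM in null mice. Those from the upstream start summed to 9.96 ± 3.19 TPM and 5.77 ± 1.23 TPM. Within the latter, Nfatc1-206, which joins the upstream start to the short 3′ end, stood at 4.38, 1.71, 2.12, 4.92 and 0.387 TPM in wild-type and at 0.144, 0.372, 0.450, 0.247 and 0.114 TPM in null libraries. Of the wild-type libraries, replicate 5 alone lay within the null range. This transcript was singled out after its values were seen, so no test was made of it, and the wild-type mean of 2.70 TPM was 10.2 times the null mean of 0.266 TPM. The split of a gene's reads among its transcripts is an estimate of the quantifier, and an antisense gene, AC123818.1, overlaps Nfatc1.

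**Figure D2:**
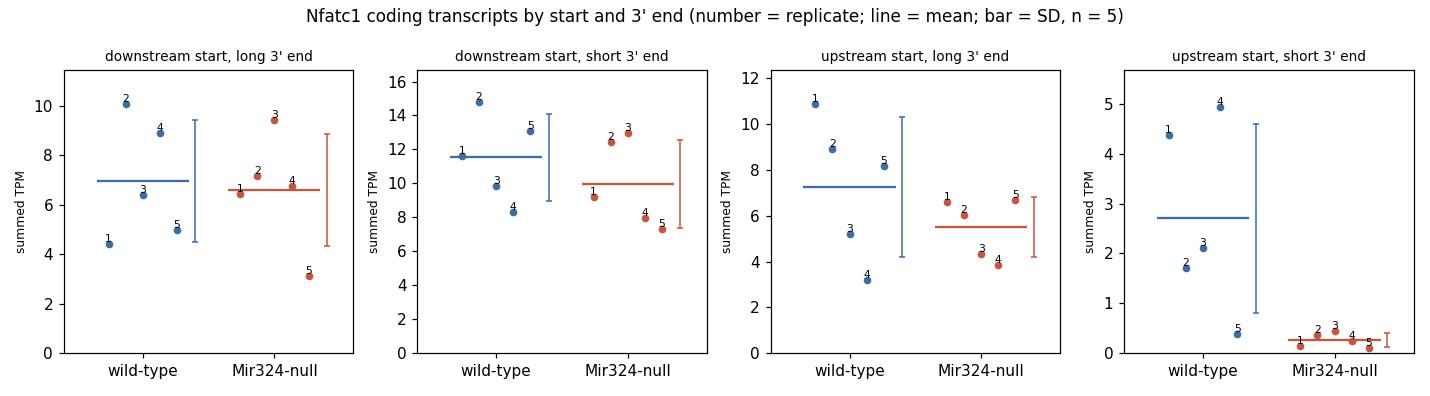
Summed TPM (vertical axes, from 0) of Nfatc1 coding transcripts grouped by start and 3′ end, with 1 numbered point per mouse, the group mean as a line and the SD as a bar (n = 5 each). The transcript with the upstream start and the short 3′ end is below 0.5 TPM in all 5 null libraries and above 1.7 TPM in 4 of 5 wild-type ones.

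The fusion genes followed. Dcstamp encodes DC-STAMP, the membrane protein without which osteoclast precursors stay mononuclear (ENSMUSG00000022303, chr15:39745930-39760938, plus strand). It stood at 8.39, 7.56, 4.87, 8.38 and 2.32 TPM in wild-type and at 1.15, 2.56, 3.82, 1.40 and 1.35 TPM in null libraries. Wild-type replicate 5 lay below null replicates 2 and 3, and the other 4 wild-type libraries above all null ones. The log2 difference was -1.23 ± 0.318 (SE), with an unadjusted p of 0.00237, an adjusted p of 0.283 and an exact permutation p of 0.0238.

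Ocstamp encodes OC-STAMP, a related membrane protein that is also needed for fusion (ENSMUSG00000027670, chr2:165393760-165400405, minus strand). It stood at 4.09, 3.67, 2.26, 2.96 and 1.17 TPM in wild-type and at 0.401, 1.99, 2.91, 0.660 and 0.748 TPM in null libraries. Null replicates 2 and 3 lay within the wild-type range and the other 3 below it. The log2 difference was -0.76 ± 0.317, with an unadjusted p of 0.0341, an adjusted p of 0.391 and an exact permutation p of 0.0635. The unadjusted limma p was between 0.0623 and 0.0863 without wild-type replicate 1, 2 or 4 or without null replicate 1, 4 or 5, each left out alone.

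Atp6v0d2 encodes the d2 subunit of the V-type proton pump, which also takes part in fusion (ENSMUSG00000028238, chr4:19876841-19922605, minus strand). It stood at 51.8, 65.7, 40.1, 48.3 and 31.7 TPM in wild-type and at 25.2, 23.8, 36.6, 21.9 and 26.2 TPM in null libraries. Null replicate 3 alone exceeded a wild-type library, replicate 5. The log2 difference of -0.79 ± 0.188 had the smallest unadjusted p of the 9 genes, 0.00135, with an adjusted p of 0.277 and an exact permutation p of 0.0159.

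Oscar encodes the collagen-binding receptor that co-stimulates osteoclast formation (ENSMUSG00000054594, chr7:3609813-3616157, minus strand). It stood at 13.5, 9.27, 5.64, 9.58 and 2.95 TPM in wild-type and at 2.90, 4.43, 7.02, 2.25 and 1.73 TPM in null libraries. Again wild-type replicate 5 was low and null replicate 3 high. The log2 difference was -0.96 ± 0.366, with an unadjusted p of 0.0233, an adjusted p of 0.362 and an exact permutation p of 0.0635. The unadjusted limma p was between 0.0513 and 0.0610 without wild-type replicate 1, 2 or 4 or without null replicate 4 or 5. Calcr encodes the calcitonin receptor, which restrains mature osteoclasts (ENSMUSG00000023964, chr6:3685680-3764714, minus strand). At 0.285, 0.384, 0.367, 0.603 and 0.244 TPM in wild-type and 0.0618, 0.266, 0.274, 0.0468 and 0.0805 TPM in null libraries it was under the 1 TPM needed for the fit over all genes. The 3 lowest null libraries were below all wild-type ones and the other 2 within their range. Its log2(TPM + 1) difference of -0.26, a scale that compresses such low levels, had an exact permutation p of 0.0317. That p was between 0.0556 and 0.0635 (exact permutation) without wild-type replicate 2, 3 or 4 or without null replicate 1, 4 or 5.

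Itgb3 encodes integrin β3, which pairs with αv in the osteoclast and with αIIb in megakaryocytes and platelets (ENSMUSG00000020689, chr11:104608000-104670476, plus strand). It stood at 64.9, 79.9, 81.4, 82.6 and 82.7 TPM in wild-type and at 125, 115, 81.9, 85.1 and 98.5 TPM in null libraries. Of the wild-type libraries, 4 lay within 3 TPM of each other, replicate 1 was lower, and null replicate 3 was below the highest wild-type ones. The log2 difference was 0.35 ± 0.127, with an unadjusted p of 0.0180, an adjusted p of 0.350 and an exact permutation p of 0.0238. Itgav, which encodes the αv partner, stood at 58.6, 38.0, 28.0, 42.1 and 24.7 TPM in wild-type and at 14.5, 21.9, 22.0, 20.1 and 16.6 TPM in null libraries, with all 5 null libraries below all wild-type ones. Its log2 difference was -0.92 ± 0.213, with an unadjusted p of 0.00106, an adjusted p of 0.277 and an exact permutation p of 0.00794, the smallest that 5 against 5 mice allow. The ratio of Itgb3 to Itgav TPM was 2.29 ± 0.874 in wild-type and 5.54 ± 1.91 in null mice, with all 5 null mice above all wild-type ones. The ratio of Itga2b, the platelet partner, to Itgb3 was 1.45 ± 0.225 and 1.54 ± 0.275. All 8 megakaryocyte and platelet markers were higher in null libraries at an unadjusted p under 0.05, 6 to 8 of them under the other scalings and none at an adjusted p. Together they summed to 1147 to 1746 TPM in wild-type libraries and to 1348 to 2784 TPM in the null ones. Their part in the Itgb3 difference was not tested.

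The resorption enzymes were the most abundant of the osteoclast genes and ranked 189th (Acp5), 200th (Mmp9) and 251st (Ctsk) by mean TPM among all genes. Acp5 encodes tartrate-resistant acid phosphatase, the classic osteoclast stain (ENSMUSG00000001348, chr9:22126727-22135711, minus strand). It stood at 1226, 1319, 659, 1008 and 451 TPM in wild-type and at 231, 493, 790, 304 and 321 TPM in null libraries. Null replicate 3 exceeded wild-type replicates 3 and 5, and null replicate 2 exceeded wild-type replicate 5. The log2 difference was -1.15 ± 0.358, with an unadjusted p of 0.00752, an adjusted p of 0.319 and an exact permutation p of 0.0397. An antisense gene, 6530413G14Rik, overlaps Acp5.

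Ctsk encodes cathepsin K, the protease that digests bone collagen (ENSMUSG00000028111, chr3:95499256-95509362, plus strand). It stood at 836, 830, 434, 781 and 280 TPM in wild-type and at 120, 336, 446, 168 and 187 TPM in null libraries. The libraries ranked in nearly the order they had for Acp5. The log2 difference of -1.37 ± 0.392 was the largest of the 9 genes, with an unadjusted p of 0.00461, an adjusted p of 0.308 and an exact permutation p of 0.0397. Ctsk per Acp5 was 0.673 ± 0.0616 in wild-type and 0.580 ± 0.0611 in null mice, with 4 of 5 null mice below all wild-type ones, so the TPM ratio of these enzymes varied only between 0.518 and 0.775.

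Mmp9 encodes gelatinase B, made by osteoclasts and also stored by neutrophils (ENSMUSG00000017737, chr2:164940780-164955850, plus strand). It stood at 764, 1016, 602, 596 and 668 TPM in wild-type and at 577, 629, 653, 446 and 478 TPM in null libraries. By this sum over transcripts, wild-type replicates 1 and 2 were highest, and null replicates 2 and 3 exceeded wild-type replicates 3 and 4. The log2 difference was -0.38 ± 0.159, with an unadjusted p of 0.0367, an adjusted p of 0.399 and an exact permutation p of 0.0794. Without wild-type replicate 2 it was -0.25, with an unadjusted limma p of 0.0879, and with protein-coding transcripts only -0.25, with an unadjusted limma p of 0.205. The unadjusted limma p was also above 0.05 without wild-type replicate 1, without null replicate 4 or 5, and when rescaled without haemoglobin genes. In wild-type replicate 1, the non-coding transcript Mmp9-204 held 324 TPM, 42.4% of the gene. In the other libraries Mmp9-204 lay between 41.6 and 90.7 TPM. The coding transcript Mmp9-201 stood at 328 TPM in wild-type replicate 1, the lowest wild-type value. That was below null replicates 1, 2 and 3 and above null replicates 4 and 5. Mmp9 per Acp5 was 0.876 ± 0.361 in wild-type and 1.51 ± 0.612 in null mice. The 10 neutrophil markers, none of them below an unadjusted p of 0.05, summed to 58807 to 116359 TPM in wild-type libraries and to 58404 to 118310 TPM in the null ones, and their part in Mmp9 was not tested.

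Across the 10 libraries, Acp5 and Ctsk had a Pearson r of 0.99 (permutation p = 1e-05, the smallest that 100000 resamples can give) and a Spearman rho of 0.99 (p = 1e-05). Both had an adjusted p of 0.00012 over the 36 pairs of the 9 tested genes. Without the 2 libraries farthest from the median r was 0.99, and for deviations from the genotype means it was also 0.99, so the genes varied together among mice of one genotype. Dcstamp and Acp5 had r = 0.97 (permutation p = 4e-05, adjusted 0.000288), rho = 0.94 (p = 0.00017, adjusted 0.00068), r = 0.97 without 2 libraries and r = 0.95 for the deviations. As a description of a subset picked after its values were seen, the 15 pairs among Acp5, Ctsk, Dcstamp, Ocstamp, Oscar and Atp6v0d2 had r between 0.85 and 0.99, and between 0.77 and 0.99 for deviations from the genotype means. Nfatc1 and Mmp9 had r = 0.93 (permutation p = 0.00015, adjusted 0.00064) and rho = 0.98 (p = 5e-05, adjusted 0.0003), with r = 0.98 without the 2 libraries farthest from the median and r = 0.89 for the deviations. Nfatc1 with Acp5 had r = 0.82 (permutation p = 0.00368, adjusted 0.00662), rho = 0.78 (p = 0.0105, adjusted 0.0165), r = 0.80 without 2 libraries and r = 0.71 for the deviations.

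**Figure D3:**
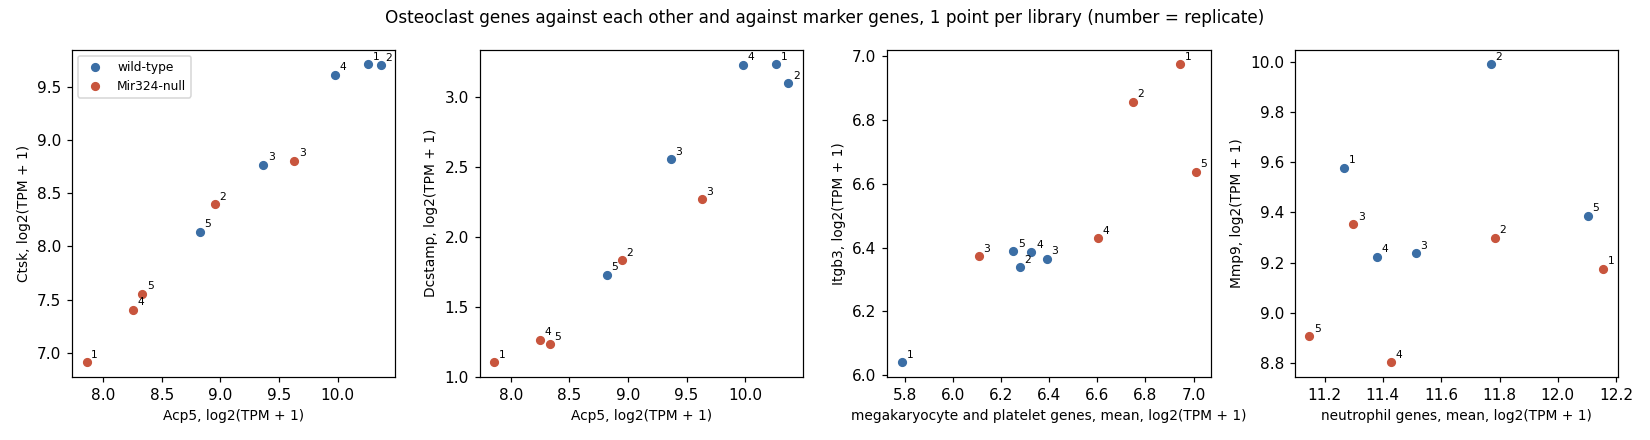
Log2(TPM + 1) of pairs of osteoclast genes, and of Itgb3 and Mmp9 against the mean log2(TPM + 1) of 8 megakaryocyte and platelet or 10 neutrophil markers, 1 numbered point per mouse. Acp5, Ctsk and Dcstamp lie along 1 line with both genotypes on it, Itgb3 follows the megakaryocyte markers, and Mmp9 is spread across the range of the neutrophil markers.

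The osteoclast genes were set against the mean log2(TPM + 1) of 5 marker lists, 45 relations in all. The erythroid list was left out of these relations. Apart from Itgb3, 7 of 8 genes had an adjusted p under 0.05 with the osteoblast and osteocyte list (r between 0.60 and 0.89 over the 8), 5 of 8 with the chondrocyte list (r between 0.49 and 0.82) and 7 of 8, with negative sign, with the megakaryocyte and platelet list (r between -0.81 and -0.60). For deviations from the genotype means these ranges were 0.30 to 0.81, 0.21 to 0.72 and -0.68 to -0.34. Without 2 libraries they were 0.42 to 0.89, 0.43 to 0.74 and -0.68 to -0.49. Itgb3 had the opposite sign with each of these lists. No gene had an adjusted p under 0.05 with the neutrophil or macrophage list. Ctsk with the osteoblast and osteocyte list had r = 0.88 (permutation p = 0.00085, adjusted 0.00848), rho = 0.88 (p = 0.00126, adjusted 0.0142), r = 0.89 without 2 libraries and r = 0.76 for deviations from the genotype means. Of that list's 11 genes, all were lower on average in null libraries and 10 were so at an unadjusted p under 0.05 (8 under each of the other scalings, and none at an adjusted p). Bglap, the gene of osteocalcin, stood at 3577 ± 1430 TPM in wild-type mice and at 1596 ± 452 TPM in null mice. The list summed to 6506 to 15029 TPM in wild-type libraries and to 3649 to 7507 TPM in the null ones, and its part in the differences of the osteoclast genes was not tested. Of 7 chondrocyte markers tested, 5 were lower at an unadjusted p under 0.05 (4 when rescaled without haemoglobin genes), and the list of 10 summed to 857 to 2257 TPM and 815 to 1220 TPM.

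Itgb3 with the megakaryocyte list had r = 0.88 (permutation p = 0.00084, adjusted 0.00848), rho = 0.81 (p = 0.00727, adjusted 0.0273), r = 0.88 without 2 libraries and r = 0.79 for the deviations. With the neutrophil list Itgb3 had r = 0.49 (permutation p = 0.152, adjusted 0.244) and rho = 0.39 (p = 0.262, adjusted 0.416). There r was 0.34 without 2 libraries and 0.72 for the deviations. Mmp9 with the neutrophil list had r = 0.25 (permutation p = 0.487, adjusted 0.599) and rho = 0.12 (p = 0.759, adjusted 0.890), with r = 0.49 without 2 libraries. Acp5 with the macrophage list, whose 8 genes include the tissue macrophage marker Adgre1, had r = -0.11 (permutation p = 0.780, adjusted 0.816) and rho = 0.01 (p = 1, adjusted 1), and r was near 0 without 2 libraries. None of 7 macrophage markers tested was under an unadjusted p of 0.05. The remaining one, Timd4, was below the 1 TPM filter, at 0.498 ± 0.292 TPM in wild-type mice and at 0.924 ± 0.231 TPM in null mice (exact permutation p = 0.0397). All 8 summed to 522 to 830 TPM in wild-type libraries and to 601 to 753 TPM in the null ones. Of 8 erythroid markers, 5 were higher at an unadjusted p under 0.05 (3 of 8 under median ratio scaling, 4 of 8 under quantile normalization, and all of the 4 left when rescaled without haemoglobin genes). The 8 summed to 112712 to 198971 TPM and 159377 to 263791 TPM. Their part in the osteoclast gene differences was not tested.

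The wider osteoclast pathway was described by 37 further genes. Of these, all tested, 7 were lower and 1 higher in null mice at an unadjusted p under 0.05, shares to be read beside the 7.3% and 4.28% of all genes, and none passed the adjusted threshold. When only genes averaging 5 TPM or more were kept, 4 were lower. The median log2 difference was -0.13, and 30 of 37 were below 0. Over all genes tested the median was also below 0, at -0.05. The count below 0 fell under the other scalings. Among the 16 receptors, adaptors and transcription factors it fell from 13 to between 9 and 11. Among the 9 genes of acid secretion it fell from 8 to 6 or 7. It fell from 5 to 4 among the 8 partners of fusion and adhesion, and from 4 to 3 among the 4 signals. The median over all genes was above 0 under each of these scalings, between 0.004 and 0.04. The plot of log2 differences sets them beside the osteoclast genes.

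**Figure D4:**
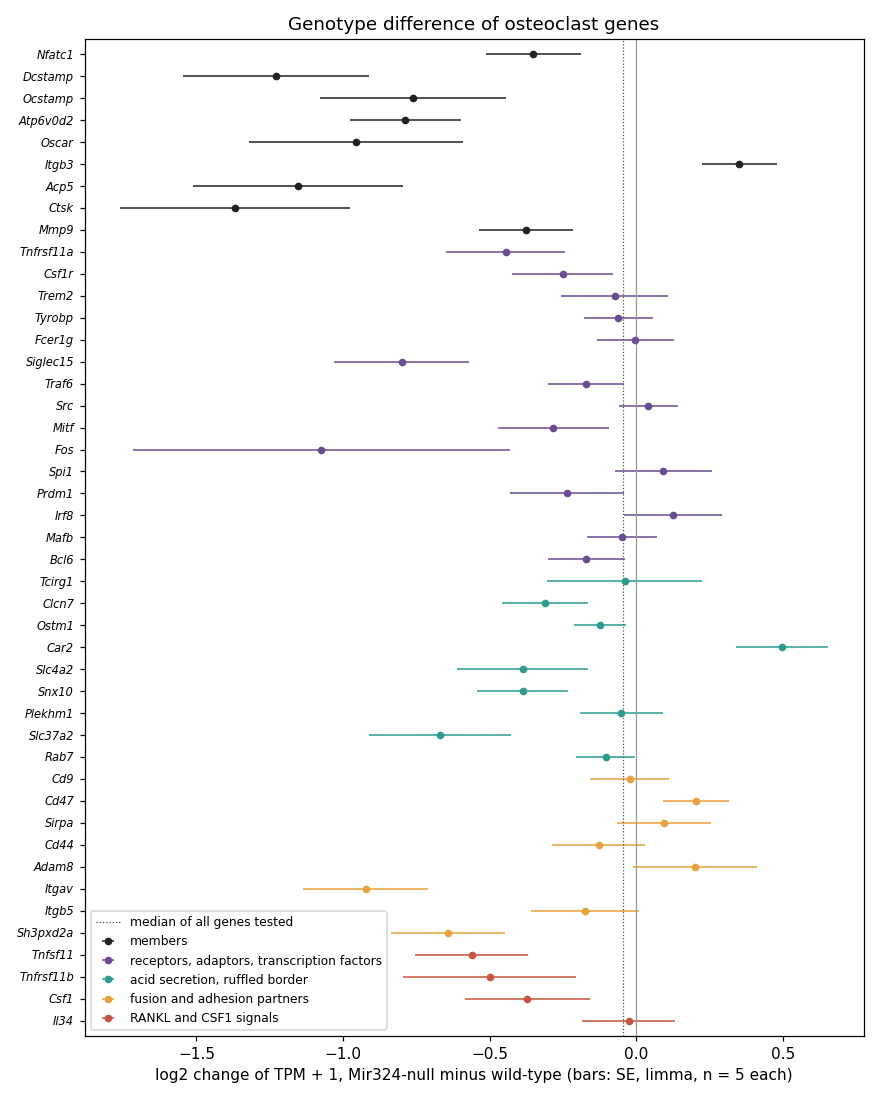
Log2 difference of TPM + 1, null minus wild-type (horizontal axis), with its SE from limma, for the 9 tested osteoclast genes and 36 of the 37 genes of the pathway and its signals; the dotted line is the median of all genes tested. Of the pathway and signal genes, Fos, Itgav, Siglec15, Slc37a2, Sh3pxd2a, Tnfsf11, Tnfrsf11b and Tnfrsf11a lie to the left, from -1.07 to -0.45. Car2 lies to the right, at 0.50, and the others nearer 0.

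Among 16 receptors, adaptors and transcription factors, 2 were lower at an unadjusted p under 0.05. Siglec15, which encodes a sialic acid receptor of osteoclast precursors, stood at 6.32, 5.40, 3.50, 4.28 and 2.33 TPM in wild-type and at 1.07, 2.59, 2.53, 1.79 and 2.16 TPM in null libraries. Wild-type replicate 5 alone lay within the null range. Its log2 difference was -0.80 ± 0.230 (adjusted p = 0.308, limma). Tnfrsf11a, which encodes RANK, stood at 5.44, 6.12, 4.13, 4.42 and 2.55 TPM in wild-type and at 2.70, 3.20, 4.29, 2.14 and 2.75 TPM in null libraries, so that wild-type replicates 3 and 5 overlapped with the null ones. Its log2 difference was -0.45 ± 0.203 (unadjusted p = 0.0495, adjusted p = 0.429, limma). Csf1r, the gene of the CSF1 receptor, differed by -0.25 ± 0.172, and Src, the gene of a kinase of the attached osteoclast, by 0.04 ± 0.101. Fos, the gene of an AP-1 factor needed to form osteoclasts, differed by -1.07 ± 0.643 (unadjusted p = 0.121, limma), with wild-type replicate 1 at 119 TPM and the other 9 libraries between 4.16 and 9.95 TPM.

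Among 9 genes of acid secretion and the ruffled border, 2 were lower and 1 higher at an unadjusted p under 0.05. Slc37a2 stood at 42.9, 40.1, 26.6, 30.8 and 19.2 TPM in wild-type and at 14.9, 22.4, 30.2, 14.9 and 15.9 TPM in null libraries, a log2 difference of -0.67 ± 0.243 (adjusted p = 0.348, limma). Snx10, the gene of a sorting nexin needed for the ruffled border, averaged 60.6 ± 11.1 and 46.3 ± 9.37 TPM, a log2 difference of -0.39 ± 0.155 (adjusted p = 0.379, limma). Both overlapped between genotypes. Car2, which encodes carbonic anhydrase II and is also abundant in red cell precursors, stood at 585, 869, 1149, 1013 and 946 TPM in wild-type and at 1166, 1152, 1213, 1358 and 1417 TPM in null libraries, with all null libraries above all wild-type ones. Its log2 difference was 0.50 ± 0.157 (unadjusted p = 0.00857, adjusted p = 0.319, limma). Tcirg1, the gene of the pump's a3 subunit, averaged 85.5 ± 33.7 and 82.7 ± 27.3 TPM, and Clcn7, the gene of the partner chloride transporter, 20.4 ± 5.06 and 16.0 ± 1.36 TPM.

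Among 8 partners of fusion and adhesion, 2 were lower at an unadjusted p under 0.05: Itgav, given above, and Sh3pxd2a. Sh3pxd2a encodes the podosome scaffold TKS5 and stood at 11.9, 9.69, 8.31, 10.5 and 8.60 TPM in wild-type and at 4.31, 6.74, 9.40, 6.17 and 3.98 TPM in null libraries. Null replicate 3 alone reached the wild-type range, and the log2 difference was -0.64 ± 0.195 (adjusted p = 0.316, limma). Of the 4 signals, Tnfsf11, the gene of RANKL, stood at 3.93, 4.45, 2.43, 3.98 and 2.62 TPM in wild-type and at 2.08, 2.52, 2.80, 1.53 and 1.28 TPM in null libraries, with null replicates 2 and 3 within the wild-type range. Its log2 difference was -0.56 ± 0.193 (unadjusted p = 0.0136, adjusted p = 0.338, limma). Tnfrsf11b, the gene of the RANKL decoy osteoprotegerin, differed by -0.50 ± 0.295, Csf1 by -0.37 ± 0.213 and Il34 by -0.03 ± 0.159, none of them under an unadjusted p of 0.05.

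The genes most like the osteoclast genes over the 10 libraries were ranked, as a description, by Pearson r of log2(TPM + 1) among the genes tested other than the osteoclast genes themselves, whose own pairs are given above. Ckb, the gene of brain-type creatine kinase, had r = 0.990 with Acp5, 0.986 with Ctsk and 0.968 with Dcstamp. Of these other genes, next to Acp5 came the adhesion molecule gene Cadm1 (0.987), Slc37a2 (0.983), Bdh2 (0.980) and Rufy4 (0.978). Next to Ctsk came Cadm1 (0.981), the exchanger gene Slc9b2 (0.980), Ppp1r3e (0.977) and Mt3 (0.977). Next to Dcstamp came Nmb (0.989), Ppp1r3e (0.979), the creatine transporter gene Slc6a8 (0.974) and Ext1 (0.960). Ckb was thus the only gene named for all 3.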

How the data were processed

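Total RNA of the medial knee cartilage cap of 10 mice was made into low-input libraries, per the labels' protocols. The authors deposited 1 table of TPM values for 116912 Ensembl mouse transcripts. The submitters' processing notes list kallisto and DESeq2 without versions and the build GRCh38, a human build; the aligner's index is not given in the sources used here. TPM holds no read counts, so the depth is unknown, no counting interval was computed and the precision comes from the spread among 5 mice. Each library sums to one total, so a large share of one transcript lowers the others.

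Transcripts were matched without version to GENCODE M21 (GRCm38; 115440 matched, and the 1472 others held 0.275% to 0.356% of TPM) and summed per gene. The 13841 genes averaging 1 TPM or more were compared as log2(TPM + 1) with limma 3.58.1 in R 4.3.3 (trend), with no covariate, adjusted by Benjamini-Hochberg, and single genes with an exact permutation test. Fold changes on this scale understate those of low genes. Correlations used 100000 permutations. The method was tested on simulated data. Alternatives were the pseudocount, the TPM filter, 3 scalings, protein-coding transcripts only, a replicate block and leaving out each mouse.

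The osteoclast genes and the lists were chosen with earlier results of these data known. Named were the 10 osteoclast genes; of each pathway list, up to 4 genes per direction with the smallest unadjusted p under 0.05; and the 5 genes most like Acp5, Ctsk and Dcstamp. Csf1r, Src, Fos, Tcirg1, Clcn7, Tnfrsf11b, Csf1, Il34, Itga2b and single markers were named outside this rule, after their values were seen. Of the pathway lists, 1 further gene entered their counts and is not reported here.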

Additional observations from a re-analysis of the deposited data

Results flagged for a closer look

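One osteoclast gene had a library apart from the rest of its group. Itgb3 stood at 64.9 TPM in wild-type replicate 1, while the other 4 wild-type libraries lay between 79.9 and 82.7 TPM. On log2(TPM + 1), the gap was 0.856 of the group's range, against a critical value of 0.71 for 5 libraries. The 36 groups examined were the 2 genotypes of the 10 osteoclast genes and of 8 named pathway and signal genes. This was 1 of the 36, and chance gives about 1 in 20. Fos was not examined. Its wild-type replicate 1 stood at 119 TPM, while the other 4 wild-type libraries lay between 6.38 and 9.95 TPM. Wild-type replicate 1 also had the lowest mean level of megakaryocyte and platelet markers of the 10 libraries, as the plot against those markers shows. The log2 difference of Itgb3 lay between 0.27 and 0.42 when any 1 mouse was left out.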

How the results depend on the processing

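The log2 differences of the 10 osteoclast genes were recomputed under up to 19 alternatives each, 183 values in all. None reversed and none passed an adjusted p of 0.05; the smallest adjusted p was 0.138, for Atp6v0d2. In 6 settings, each leaving out 1 mouse, the exact permutation p of Calcr rose above 0.05, to at most 0.0635. Over all settings that left out 1 mouse, whether or not this p rose, the Calcr difference lay between -0.30 and -0.21. As no fitted gene passed the adjusted threshold in any setting, keeping its side of it says little. At the unadjusted p, Ocstamp crossed 0.05 in 6 settings (largest p 0.0863), Oscar in 5 (0.0610) and Mmp9 in 6 (0.205), Nfatc1 came under it in 8 (smallest p 0.0156), and Acp5, Ctsk, Dcstamp, Atp6v0d2 and Itgb3 crossed it in none. For Calcr, quantile normalization and rescaling without haemoglobin genes were not run. Osteoclast genes lower at an unadjusted p under 0.05 numbered between 4 and 8 when 1 mouse was left out, against 7 with all. Of the 37 pathway and signal genes, 4 were lower with a mean of at least 5 TPM required, against 7, and 2 were higher when rescaled without haemoglobin genes or without null replicate 3, against 1; leaving out a mouse gave 5 to 9 lower and 1 or 2 higher. Over all genes, leaving out 1 mouse gave 620 to 1355 lower, 441 to 680 higher and 0 or 1 with an adjusted p under 0.05. The causes were not tested. Same-numbered mice of the 2 genotypes are not stated to be paired, and the correlations of their deviations lay between -0.144 and 0.0564, with none highest for its own number. With a replicate block, 8 osteoclast genes were lower at an unadjusted p under 0.05 and 709 genes lower and 459 higher over all genes, and no gene passed the adjusted threshold. What depth limits could not be computed from TPM.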
